A study of Rattus norvegicus with 2 samples.

Results

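A set of 7 genes of the thick ascending limb were followed in kidneys of female PCK rats, a strain whose Pkhd1 mutation leads to kidney and liver cysts. The genes are Umod, Slc12a1, Kcnj1, Bsnd, Casr, Ptger3 and Fxyd2. They were chosen by name, and their values are those of the array probes whose transcript accession belongs to the gene in a RefSeq table. Of the 7 genes, 6 had an assigned probe, 1 each, out of 13435 named genes. No probe was assigned to Slc12a1, which is not analysed here. On both arrays all 6 probes stood well above background without saturation, which held for 10484 genes in all.

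The first group is PCK females given pioglitazone, a drug that activates PPAR-gamma. The dose was 10 mg/kg by daily gavage, begun at 4 weeks of age and ended at 20 weeks. The second is PCK females given the vehicle with 0.5% DMSO over the same weeks. Both groups carry the strain's mutation, and no unaffected rats are analysed here. Kidney RNA was pooled within a group, from 5 females according to the design text and 3 rats according to the labelling text, and each pool was hybridised to 1 Cy3 array. With 1 array per group the design has no replicates, so no p-value was computed and no difference carries an error between animals.

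The thick ascending limb reabsorbs sodium chloride without water and so sets up the gradient that lets the kidney concentrate urine. Salt enters the cell through the apical cotransporter NKCC2 (Slc12a1), potassium returns to the lumen through ROMK (Kcnj1), chloride leaves through basolateral channels that need barttin (Bsnd), and the sodium pump with its gamma subunit (Fxyd2) drives the process. The calcium-sensing receptor (Casr) and the prostaglandin E2 receptor EP3 (Ptger3) restrain this transport. Uromodulin (Umod), the main protein of normal urine, is made and secreted here.

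The genes differed little between the pools. All differences below are pioglitazone minus vehicle on the log2 scale after each array's 75th percentile was subtracted, unless a fold is given. Of the 6 measured genes, 5 had a positive difference and Ptger3 a negative one, and the values ran from -0.11 to 0.27 with a median of 0.11. The median over all 10484 measured genes was 0.03. A gene was called when its difference was at least 1.5-fold and exceeded 2 technical errors, the technical error being the software's error of both spots combined. None of the 6 was called, 0 higher and 0 lower. By the same rule 2.51% of all measured genes were called, 0.754% as higher and 1.76% as lower, so a count of 0 among 6 is near the background. The count stayed at 0 with a lower fold threshold, 0.32 on the log2 scale, which called 5.61% of all genes (1.76% higher, 3.84% lower). It was also 0 at 2-fold, which called 0.458% (0.162% higher, 0.296% lower). A positive difference was found for 56.1% of all measured genes, against which the 5 of 6 here is to be read. All 6 differences were within 2 technical errors and 4 were within 1.

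Umod, the defining marker of the thick ascending limb, was read by probe A_43_P11809. Its signal was 220000 in the pioglitazone pool, against 195000 in the vehicle pool, with software errors of 22000 and 19500 that overlapped. The difference was 0.09 with a technical error of 0.20, a ratio of 1.07. Of all measured genes, 34.3% had a higher difference. Its signal was taken from the low-gain scan on both arrays, as was that of Fxyd2.

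**Figure D1:**
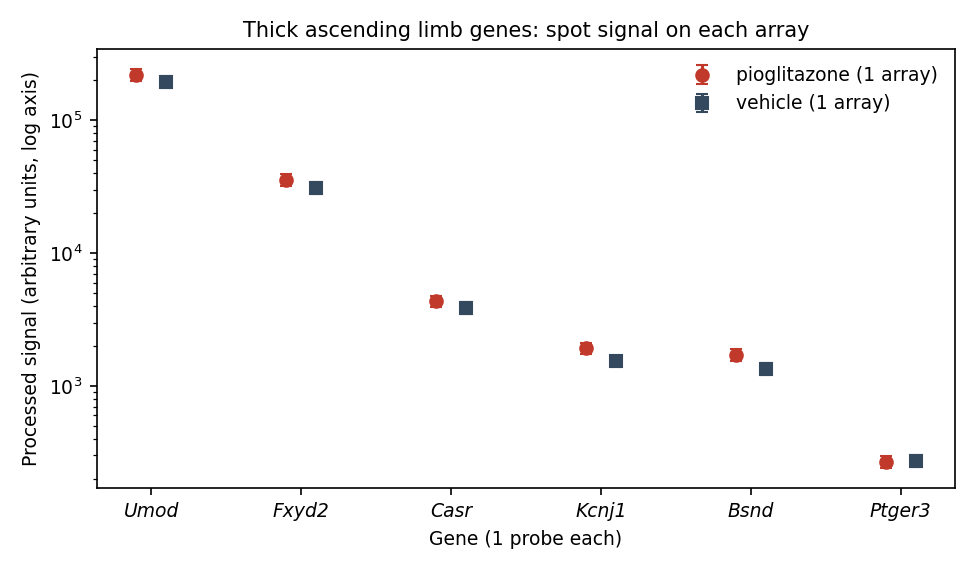
Processed spot signal of the 6 measured genes on a log axis, for the pioglitazone array (circles) and the vehicle array (squares), with the software's error of the spot as bars. Each pair of points lies close together, from 220000 and 195000 for Umod to 269 and 274 for Ptger3. Probes differ in efficiency, so levels of different genes cannot be set against each other.

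Kcnj1, the potassium channel that recycles potassium to the lumen, gave 1920 with pioglitazone and 1540 with vehicle at probe A_44_P470683. The pioglitazone signal was the higher one, and the software errors of 192 and 154 did not overlap before scaling. After scaling the difference was 0.24 with a technical error of 0.20, a ratio of 1.18. When the grid rows were cut into 10 equal bands, its spot fell in band 7, where 2.28% of measured genes were called. Over all 10 bands that share ran from 1.8% to 3.51%.

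Bsnd, the barttin subunit of the chloride channels, gave 1720 with pioglitazone and 1350 with vehicle at probe A_42_P755115. The pioglitazone signal was again higher, with software errors of 172 and 135 that did not overlap before scaling. The difference of 0.27, a ratio of 1.20, was the largest of the 6 and still within 2 technical errors. Of all measured genes, 7.99% had a higher difference than Bsnd and 10.6% a higher one than Kcnj1.

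Fxyd2, the gamma subunit that tunes the sodium pump, gave 35600 with pioglitazone and 30900 with vehicle at probe A_42_P506685. The errors of 3560 and 3090 overlapped, and the difference was 0.12, a ratio of 1.09. This gene is also expressed in the distal convoluted tubule, so its whole-kidney signal is not that of the thick ascending limb alone. The share of the segment in the whole-kidney signals of Kcnj1, Bsnd and the other genes was not measured either. In whole-kidney RNA, fewer cells of a type and less RNA per cell cannot be told apart, and this holds for every gene described.

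The receptors had the smallest and the one negative difference. Casr, the calcium sensor of the basolateral membrane, gave 4330 with pioglitazone and 3870 with vehicle at probe A_43_P11765. The errors of 433 and 387 overlapped, and the difference was 0.08, a ratio of 1.06. Ptger3, the EP3 receptor that lowers cyclic AMP, gave 269 with pioglitazone and 274 with vehicle at probe A_44_P276317. Its errors of 27.0 and 27.5 overlapped almost fully, and its difference was -0.11, a ratio of 0.927. Without scaling between arrays the difference was -0.03. Of all measured genes, 24.9% had a lower difference than Ptger3.

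**Figure D2:**
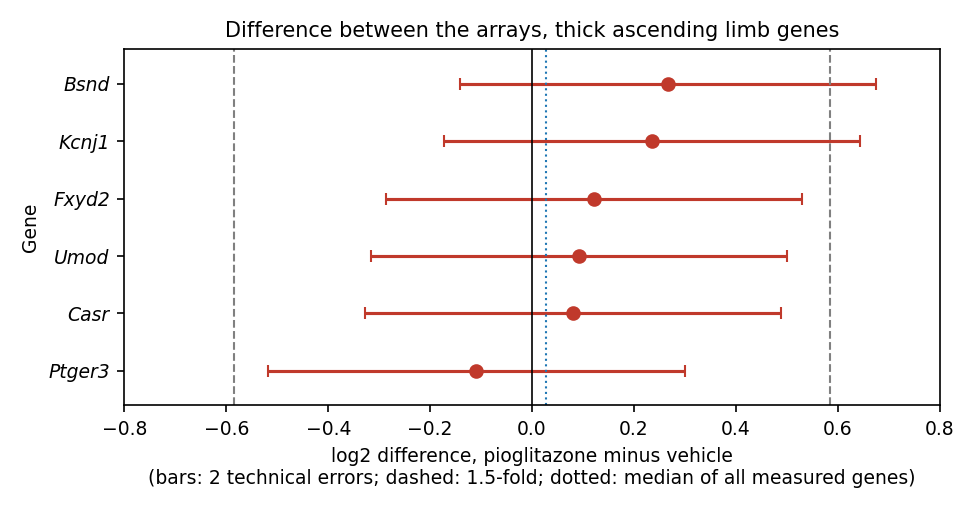
Difference of each measured gene (x axis, log2, pioglitazone minus vehicle), with bars of 2 technical errors, dashed lines at 1.5-fold and a dotted line at the median of all measured genes, 0.03. All 6 bars cross 0, and the points run from -0.11 for Ptger3 to 0.27 for Bsnd.

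The bars set limits within the software's error only. The technical error was 0.204 for Umod, Kcnj1, Bsnd, Casr and Fxyd2 alike, whatever their signal, and 0.205 for Ptger3. The bars thus have nearly 1 fixed width and hold no spread measured for the gene itself. With 2 technical errors on either side, Umod lay between ratios of 0.803 and 1.41, Casr between 0.796 and 1.40, Fxyd2 between 0.820 and 1.44 and Ptger3 between 0.698 and 1.23. For these genes a difference of 1.5-fold was outside the bars. For Kcnj1 the bars reached 1.56 and for Bsnd 1.60, so that a 1.5-fold higher level was not outside them. These limits hold no spread between animals.

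Spots of the same probe varied less than the software's error. With flagged spots left out, among 59 probes printed 10 times with signals between 1000 and 10000, the range of Kcnj1, Bsnd and Casr, the difference between arrays had an SD between spots with a median of 0.06 and a 95th percentile of 0.10. Kcnj1 and Bsnd differed by more than this 95th percentile, and Casr, at 0.08, lay between it and the median. Among 74 such probes with signals between 100 and 1000, the range of Ptger3, these values were 0.07 and 0.12. At -0.11, Ptger3 lay between them in size. Among 15 probes above 10000, the range of Umod and Fxyd2, the values were 0.04 and 0.07. Umod, at 0.09, and Fxyd2, at 0.12, were also above the 95th percentile. These percentiles are taken over the SDs of probes and not over differences. A difference above such a percentile exceeds 1 SD of a variable probe, which is not a limit on noise. The SDs hold no spread between hybridisations or animals. All 6 genes stayed within 2 technical errors. Each of the 6 genes was read from 1 spot per array, so none has a spot SD of its own.

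**Figure D3:**
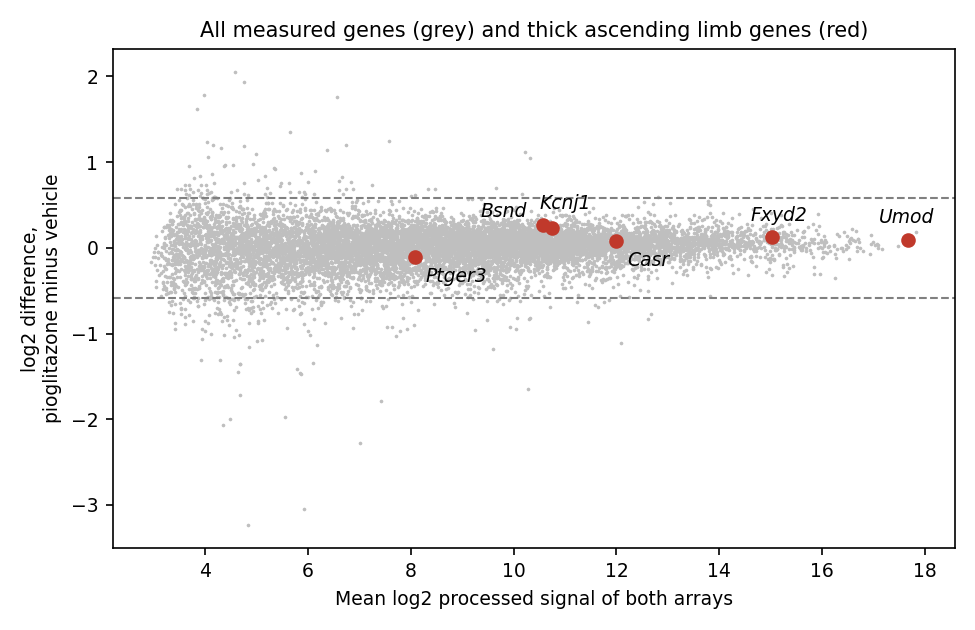
Difference (y axis, log2, pioglitazone minus vehicle) against mean log2 signal of both arrays (x axis) for 10484 measured genes in grey and the 6 thick ascending limb genes in red, with dashed lines at 1.5-fold. The 6 red points lie inside the dashed lines, between -0.11 and 0.27, and none is among the dim genes at the left, where grey points spread most.

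PPAR-gamma binds DNA with RXR at paired copies of the letters AGGTCA, so the RefSeq start regions of the genes are shown for the ones that hold a copy. The windows run from 250 bases before to 50 bases after an annotated start, and 8 windows of 6 of the 7 genes were matched by symbol. Capitals mark AGGTCA on either strand, here always read as TGACCT on the strand shown.
Bsnd, GRCr8 chr5:126489340-126489639, minus strand: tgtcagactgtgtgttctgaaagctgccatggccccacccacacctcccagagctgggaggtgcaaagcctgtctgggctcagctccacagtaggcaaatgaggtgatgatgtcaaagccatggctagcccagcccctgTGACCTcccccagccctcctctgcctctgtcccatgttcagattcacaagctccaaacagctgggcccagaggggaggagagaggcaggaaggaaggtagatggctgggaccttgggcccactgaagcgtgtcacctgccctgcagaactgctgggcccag
Casr, GRCr8 chr11:77740364-77740663, plus strand: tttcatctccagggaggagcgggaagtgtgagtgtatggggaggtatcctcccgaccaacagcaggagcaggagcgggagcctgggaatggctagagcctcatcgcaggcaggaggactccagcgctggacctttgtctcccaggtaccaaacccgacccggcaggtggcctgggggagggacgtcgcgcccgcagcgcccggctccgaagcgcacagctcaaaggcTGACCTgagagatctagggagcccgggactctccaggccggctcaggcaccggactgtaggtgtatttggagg
Umod, GRCr8 chr1:183260967-183261266, minus strand: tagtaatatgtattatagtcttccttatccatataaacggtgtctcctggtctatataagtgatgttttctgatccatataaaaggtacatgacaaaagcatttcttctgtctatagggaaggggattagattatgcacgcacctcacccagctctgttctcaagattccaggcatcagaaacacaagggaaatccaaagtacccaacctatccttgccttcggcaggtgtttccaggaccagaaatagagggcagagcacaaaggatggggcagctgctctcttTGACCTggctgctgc
The first capital of the motif stands at position -111 from the start in Bsnd, at -23 in Casr and at 35 in Umod. No overlap with another searched motif occurred. The windows of Kcnj1, Slc12a1 and Ptger3 did not hold these letters. In all, 3 of 8 windows held the motif, against 16.2% of 33469 windows of the same length in the table. The full direct repeat AGGTCANAGGTCA was in 0 of the 8 and in 0.0538% of all windows. Bsnd with a match and Kcnj1 without one had the largest differences, and the matches describe letters only.

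The wider machinery of the segment was read from 9 lists of further genes, of which 2 share a pair of genes. Of their 99 genes, 90 had an assigned probe and 85 were measured. Their median difference was 0.01, against 0.03 over all measured genes, and 49 were positive. Among them 1 gene was called, as lower with pioglitazone. No gene was called as higher. The share called, 1 of 85, is near the 2.51% over all genes.

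Among 11 measured transport partners, 8 were positive and none was called, with a median of 0.11. Kcnj16, a basolateral potassium channel, was at 0.32 (12700 with pioglitazone, 9580 with vehicle), the sodium-proton exchanger Slc9a2 at 0.33 and the bicarbonate cotransporter Slc4a7 at -0.34, all within 2 technical errors.

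Fxyd2 can be set beside its family and the pump it regulates. Of 11 measured FXYD and pump genes, 4 were positive and 1 was called, as lower, with a median of -0.11. The pump's beta subunit Atp1b1 was close to Fxyd2 in its difference. It gave 138000 with pioglitazone and 124000 with vehicle, a difference of 0.07. Fxyd5, a family member of many epithelia, gave 663 with pioglitazone and 860 with vehicle, a difference of -0.46 that exceeded 2 technical errors. Fxyd3 was at -0.30, within 2 technical errors.

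Around Umod, 7 of 9 measured genes of its processing or of the same cells were positive, none was called and the median was 0.22. Hpn, the protease hepsin that releases uromodulin from the membrane and is also made in the proximal tubule, gave 6030 with pioglitazone and 4840 with vehicle, a difference of 0.23. Egf, the growth factor precursor of the thick ascending limb and distal tubule, was printed in 10 spots. Its spots ran from 22100 through a median of 23400 to 24900 with pioglitazone, and from 18000 through 19150 to 20000 with vehicle. The spots of the arrays did not overlap, and the difference was 0.22 with an SD of 0.02 between spots, which is technical. Mal, a raft protein of apical traffic, gave 1950 with pioglitazone and 2520 with vehicle, a difference of -0.45 that exceeded 2 technical errors. Pdilt, a testis-enriched disulfide isomerase homologue whose gene lies beside Umod, was at -0.44 from dim signals of 13.0 with pioglitazone and 16.7 with vehicle, within 2 of its technical errors. Gp2, a relative of uromodulin, was at 0.27.

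Hormone receptors of the segment and genes that make or break down cyclic AMP were positive in 9 of 10 measured genes, with none called and a median of 0.11. Of the 10, 6 were above the median of all genes. The parathyroid hormone receptor Pth1r, which is also strong in the proximal tubule, gave 7980 with pioglitazone and 5800 with vehicle, a difference of 0.38. The glucagon receptor Gcgr was at 0.24, Pde4b, a phosphodiesterase that breaks down cyclic AMP, at 0.18 and the calcitonin receptor Calcr at 0.16. The vasopressin receptor Avpr2 gave 1380 on both arrays, which scaling turns into -0.08. Vipr1, a receptor for vasoactive intestinal peptide, was above background with pioglitazone alone, where it gave 15.6 against 1.54 with vehicle. Against the lowest signal well above background on the vehicle array, 7.66, its pioglitazone signal was 1.92-fold higher after scaling. This ratio carries no technical error and is not a lower limit.

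Ptger3 belongs to the prostaglandin E2 pathway, in which 4 of 8 further measured genes were positive, none was called and the median was -0.01. Ptgs1, the constitutive cyclooxygenase, was printed in 10 spots. They ran from 661 through a median of 724.5 to 771 with pioglitazone, and from 928 through 1008 to 1070 with vehicle. The arrays did not overlap, and the difference of -0.55 with an SD of 0.06 between spots exceeded 2 technical errors and stayed just under 1.5-fold. The receptors Ptger4 (-0.26) and Ptger2 (-0.21) were dim, at 26.0 and 18.9 with pioglitazone and 29.4 and 20.6 with vehicle. The synthase Ptges2 was at 0.24, and Ptgs2, the inducible cyclooxygenase of the macula densa, was not well above background on either array.

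Signalling partners of Casr had a median of 0.00 over 11 measured genes, of which 6 were positive and none was called. Pla2g4a, the phospholipase that frees arachidonic acid, gave 112 with pioglitazone and 143 with vehicle, a difference of -0.43 that exceeded 2 technical errors. The phospholipase Plcb4 was at 0.19, the calcineurin subunit Ppp3ca at -0.19 and the filamin Flna at -0.17.

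Tight junction genes had a median of -0.02 over 7 measured genes, with 3 positive and none called. Cldn16 and Cldn19 form the pore for calcium and magnesium in this segment. Cldn16 gave 725 with pioglitazone and 696 with vehicle, a difference of -0.02, and Cldn19 gave 1330 with pioglitazone and 1500 with vehicle, a difference of -0.26. Tjp1 was at -0.29, Cldn3 at -0.27 and Cldn14, which closes the cation pore, at 0.11. All were within 2 technical errors.

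Kinases and traffic proteins that act on NKCC2 had a median of -0.03 over 12 measured genes, with 5 positive and none called. Sorl1, a sorting receptor that aids NKCC2 activation, gave 2670 with pioglitazone and 3060 with vehicle, a difference of -0.28, and its other measured probe gave -0.10. The kinase Oxsr1 was at -0.17 and Stk39, its close relative, at -0.01. Aup1 was at 0.19 and the secretory membrane protein Scamp2 at 0.14. Transcription factors of the segment had a median of 0.02 over 8 genes, with 5 positive and none called. Irx2 was at -0.26, Ppargc1a at -0.23 and the dim Esrrg at -0.40, all within 2 technical errors.

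**Figure D4:**
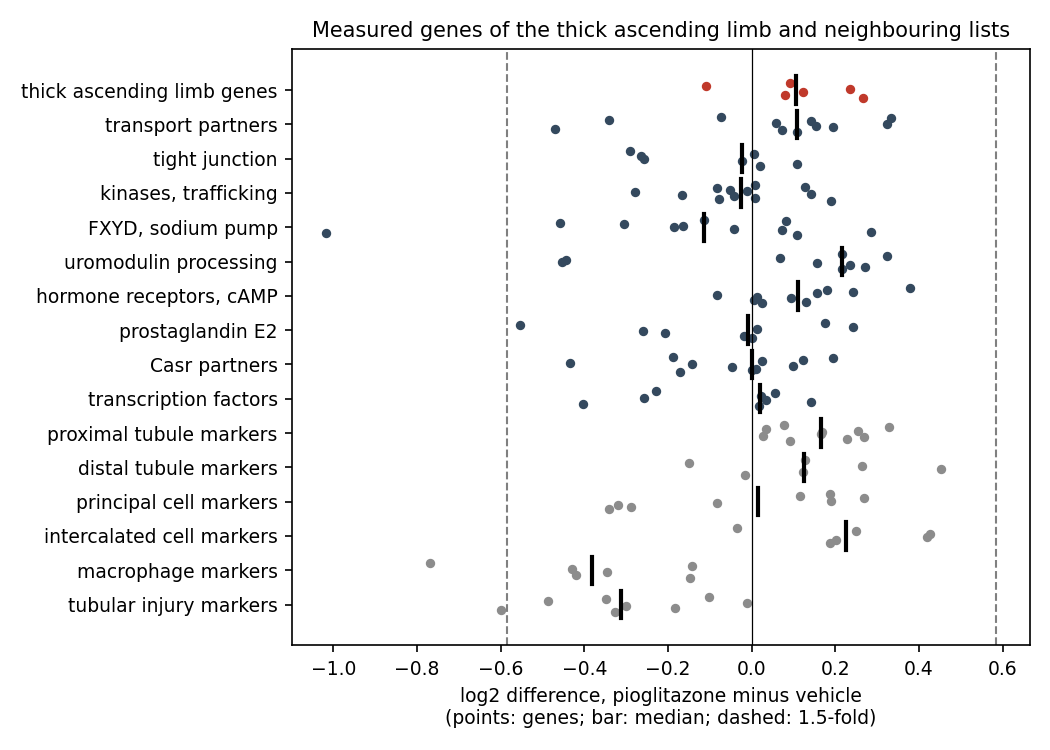
Differences (x axis, log2, pioglitazone minus vehicle) of the measured genes of each list, 1 point per gene, with the list's median as a bar and dashed lines at 1.5-fold. The thick ascending limb genes in red lie between -0.11 and 0.27, the 9 further lists of the segment in dark blue have medians between -0.11 and 0.22, and marker lists of other cells are in grey.

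Markers of other kidney cells were read on the same arrays. Medians below are of scaled differences, while summed signals are unscaled, carry the shift of 0.08 between arrays and are weighted to the brightest probes. A separate marker list of the thick ascending limb, which shares Umod and Kcnj1 with the genes above, had a median of 0.04 over 8 measured genes and summed signals of 353962 with pioglitazone and 319369 with vehicle, of which Umod alone gave 220000 and 195000. Proximal tubule markers had a median of 0.17 with 10 of 10 positive, and summed signals of 234076 with pioglitazone and 204247 with vehicle. Distal convoluted and connecting tubule markers, which share Fxyd2, had a median of 0.13 over 6 genes, intercalated cell markers 0.23 over 6 and principal cell markers 0.02 over 8. The principal cell markers were split, with 4 positive and 4 negative. Aqp2 was at -0.34, Aqp4 at -0.32, Aqp3 at -0.29 and Scnn1a at 0.27, all within 2 technical errors. Other probes of Aqp4 were lower, down to -0.99. Without the middle grid rows the principal cell median was 0.11 over 5 genes. Podocyte markers had the highest median of the lists, 0.30, with 5 of 5 positive and none called. That rank depended on the choice of probe. With the probes of a gene averaged, the podocyte median was 0.13 and that of intercalated cells 0.23. The podocyte gene Wt1 was at 0.30, and its other, dim probe gave -0.05. Endothelial markers had a median of -0.04 over 5 with none called. Macrophage markers were negative in 6 of 6, with a median of -0.38 and sums of 8955 with pioglitazone and 10824 with vehicle. Of these, the integrin subunit Itgam was called as lower at -0.77, from dim signals of 15.1 with pioglitazone and 24.3 with vehicle. Tubular injury markers were negative in 8 of 8, with a median of -0.31 and sums of 126941 with pioglitazone and 149429 with vehicle, and Havcr1 was called as lower at -0.60. Of the macula densa markers, Nos1 and Ptgs2 were not well above background on either array, nor was Trpv5 of the distal list. The part of such shifts in the values of the thick ascending limb genes was not tested, and with 1 array per group a difference between lists has no test.

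The differences were recomputed under other settings. Bsnd stayed between 0.21 and 0.35 over 12 alternatives and Kcnj1 between 0.10 and 0.32 over 11. The lowest value of Kcnj1 came with normexp correction of the raw spot signal, with an offset of 50 and quantile scaling after it. Before the software's multiplicative detrending of the array, Kcnj1 was at 0.16. Umod was between 0.00 and 0.17, with 0.00 under quantile scaling, which gives spots of equal rank on both arrays 1 value. Fxyd2 ran from 0.05 to 0.20, Casr from 0.04 to 0.16 and Ptger3 from -0.14 to -0.03.

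**Figure D5:**
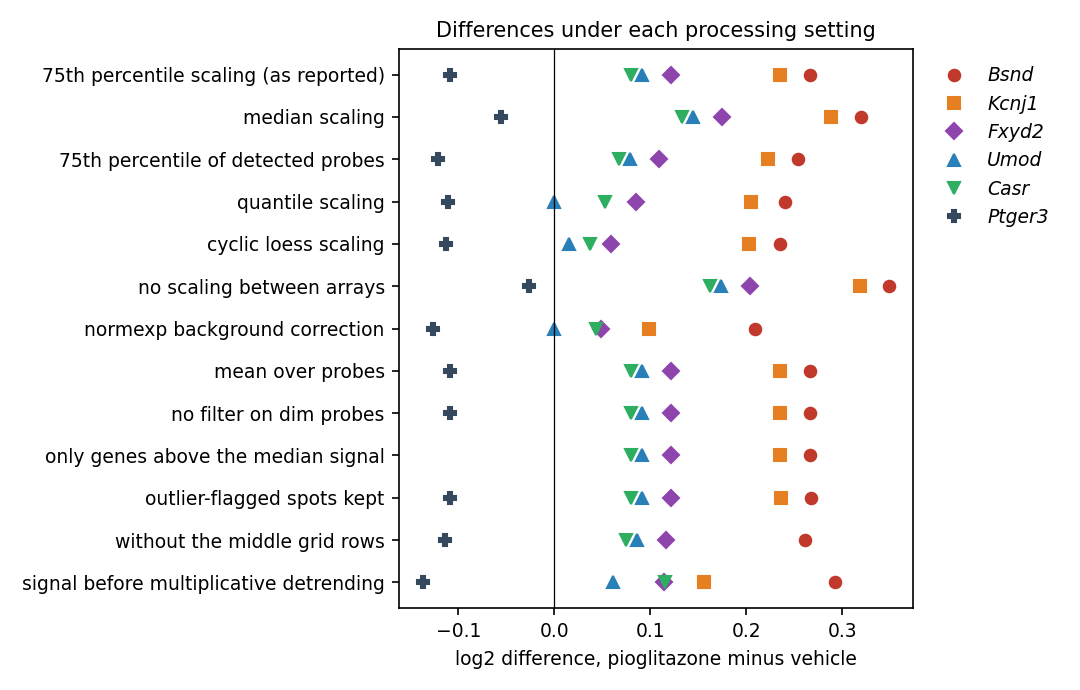
Difference of each measured gene (x axis, log2, pioglitazone minus vehicle) under the reported setting in the top row and 12 alternatives below it. Bsnd is above 0.2 in every row, Ptger3 is below 0 in every row that holds it, and Umod reaches 0 with quantile scaling and normexp correction. The normexp setting also ends in quantile scaling.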

How the data were processed

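Kidney RNA pools of pioglitazone-treated and vehicle-treated female PCK rats, 1 array each, were analysed. The deposited intensity values came from Agilent Feature Extraction 10.7.3.1, per the submitters' processing notes and the file headers, a linear processed signal per spot with background and spatial trends removed within the array and without any scaling across arrays. In the deposited value table the same intensities stand at all 45018 features of both arrays. The headers name the rn4 build, while names and promoter windows come from RefSeq tables of GRCr8, so no probe coordinates are given.

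Of 43379 spots per array besides controls, 73.1% were well above background with pioglitazone and 71.8% with vehicle, and 0 were saturated. The 149 spots flagged as outliers were left out. Signals were put on the log2 scale relative to the 75th percentile of the array (a shift of 0.08 between arrays). Replicate spots were averaged, 16959 of 40998 probes were named by accession, and a gene took its probe of highest mean signal. The number of arrays limits the precision. The technical error had a median of 0.20 on the log2 scale. The text names all 7 genes, and per list the called genes and up to 4 with the largest differences. Atp1b1, Hpn, Egf, Avpr2, Vipr1, Ptgs2, Cldn16, Stk39 and Havcr1 were added after their values were seen, and some genes of the lists are not reported here by name. The genes, lists and settings were chosen with earlier results of these data known. Alternatives used limma 3.58.1 in R 4.3.3, and the procedure was tested on simulated data. The simulated spot noise was equal at every brightness and smaller than that of dim replicate spots here. The simulation therefore says little about calls among dim genes.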

Additional observations from a re-analysis of the deposited data

How the results depend on the processing

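None of the 6 measured genes was called under any of 15 alternatives, including a lower fold threshold of 0.32 on the log2 scale. Their median ran from 0.05 to 0.19 and was above the median of all genes in each of the 12 alternatives that rescale or refilter the data. Ptger3 is left out above the median signal and Kcnj1 without the middle grid rows. Leaving the arrays unscaled moved the median of all genes from 0.03 to 0.11. The median of the further genes of the segment, 0.01, became 0.0645 with median scaling, -0.0144 with cyclic loess and 0.0937 without scaling. Relative to the median of all genes, this list's median was -0.0152 as reported, with median scaling and without scaling, since these settings shift every gene alike. With cyclic loess it was -0.0219, and the cause was not tested. Over all settings it lay between -0.04 and 0.01. Against 1 gene of that list called, 0 were called with normexp correction, 0 above the median signal, which leaves out dim genes, 2 (1 of them Vipr1, as higher) with no filter on dim probes and 6 (all lower, among them Fxyd5, Mal, Pla2g4a and Ptgs1) at that lower threshold. For normexp the cause was not tested. Normexp was run on median spot signals with an offset of 50, and quantile scaling followed it. Over all measured genes, the share of calls that were higher was 30.0%, against 45.2% with median scaling, 52.6% without scaling, 15.3% with normexp and 14.3% above the median signal. The calls themselves, 79 higher and 184 lower, became 9 and 50 with normexp, 5 and 30 above the median signal, 17 and 31 at 2-fold and 185 and 403 at the lower threshold. The signal before multiplicative detrending was added after seeing the data. No paired analysis was possible because 1 array stands for each group. Each of the 6 genes rests on 1 spot per array, so the software's error is the only error its own value has.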
